A study of Mus musculus with 9 samples.

Results

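The genes described here encode collagen chains and the proteins that modify, fold, trim and crosslink them, as measured by RNA sequencing in C2C12 myotubes. They were chosen by a rule on gene symbols that uses no measured value, written with earlier results of these data known. The rule took each row of the deposited table that names a collagen chain, a prolyl 4-hydroxylase alpha subunit (P4ha), a prolyl 3-hydroxylase (P3h), a lysyl hydroxylase (Plod) or a lysyl oxidase (Lox, Loxl), and added Serpinh1, Pcolce, Bmp1 and Colgalt1. This gave 36 of 10716 genes, 18 collagen chains and 18 processing genes. The lowest value of the table was 1.00 FPKM, so genes with low values had been removed before deposition, and all 36 had passed that filter in every library. Another 27 mouse genes with fitting symbols, among them Col2a1, Col7a1 and Col10a1, were not analysed here.

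C2C12 is a mouse myoblast line whose cells fuse into multinucleated myotubes when they differentiate. For 24 h the myotubes received dexamethasone at 50 µM with THSG at 10 µM, dexamethasone at 50 µM alone, or vehicle, and each of the 3 groups had 3 libraries. Dexamethasone is a synthetic glucocorticoid that causes muscle wasting, and THSG is given in the labels by this abbreviation only. THSG was always given with dexamethasone, so an effect of THSG by itself cannot be read from these groups. The sample titles all name C2C12, while the cell line entry carries a number that goes up from one sample to the next; the titles were followed. The labels do not say whether the libraries came from separate cultures, so p-values measure only the spread between these libraries. RNA was taken from whole cultures, in which fewer cells of a type and less RNA per cell cannot be told apart.

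Collagen chains are wound into a helix inside the endoplasmic reticulum, where hydroxylases act on their prolines and lysines and the chaperone encoded by Serpinh1 holds the helix together. After secretion the ends of fibrillar chains are cut off, and lysyl oxidases crosslink the molecules. In muscle, fibrillar collagens fill the spaces between fibres, and type IV collagen forms the network of the basement membrane that sheathes each fibre. Glucocorticoids are known to lower collagen synthesis in skin and in cultured fibroblasts.

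Values are FPKM, fragments scaled to transcript length and library size, a unit that was inferred from the values and is stated in no label. The deposited table is titled as counts, but its values are fractional, and TPM or another rescaling cannot be told apart from FPKM. Levels set side by side between genes, and the ratios and shares built on them, rest on the inference that the values are per length. A fold change is a difference of mean log2(FPKM + 0.1), and a gene was called when its limma p, adjusted by the Benjamini-Hochberg method over all 10716 genes, was under 0.05. Libraries of 1 group resembled each other with r from 0.991 to 0.994 on the log2 scale, across genes, which are not independent replicates. The share of mitochondrially encoded RNA was highest in dexamethasone replicate 3, at 14.0% of the summed FPKM, and lay between 10.5% and 11.95% elsewhere.

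Marker counts in this and the next paragraph stand beside 12.7% of all genes called higher and 20.9% called lower with dexamethasone against vehicle. Markers of myotubes were present in all libraries. Their 12 genes summed to between 7755 and 7942 FPKM with dexamethasone plus THSG, between 7264 and 7795 FPKM with dexamethasone, and between 6783 and 7323 FPKM with vehicle; with dexamethasone 7 were higher and 1 lower than with vehicle. The 10 myoblast and reserve cell markers summed to 262 FPKM in each dexamethasone plus THSG library, to between 239.9 and 268 FPKM with dexamethasone, and to between 258 and 265 FPKM with vehicle, with 3 higher and 5 lower. Of 8 markers of dividing cells, 6 were analysed here and all 6 were lower with dexamethasone than with vehicle, at sums of 18.4 to 20.9 FPKM with dexamethasone plus THSG, 17.5 to 21.1 FPKM with dexamethasone and 50.0 to 56.1 FPKM with vehicle (Mki67 and Bub1 were not analysed here).

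Of 12 fibroblast and mesenchymal progenitor markers, 7 were analysed here, and with dexamethasone 3 were higher and 4 lower than with vehicle. They summed to 2117 to 2494 FPKM with dexamethasone plus THSG, 2119 to 2312 FPKM with dexamethasone and 2544 to 3222 FPKM with vehicle. Pdgfra, Pdgfrb, Dcn and Ly6a were a small part of these sums. The most abundant of them, Ly6a, averaged 210 FPKM with dexamethasone plus THSG, 193 FPKM with dexamethasone and 135 FPKM with vehicle. The sums therefore mostly reflect the remaining genes of the list. Pdgfra was higher (log2 fold change 1.31) and Pdgfrb lower (-0.89), both receptors for platelet-derived growth factor; Thy1, Lum, Tcf21, Pi16 and Dpt were not analysed here. Of 9 osteoblast and chondrocyte markers, 4 were analysed here and all 4 were lower, at 672 to 718 FPKM with dexamethasone plus THSG, 631 to 672 FPKM with dexamethasone and 1727 to 1843 FPKM with vehicle (Bglap, Alpl, Sp7, Acan and Ibsp were not analysed here). Most of that sum was Spp1, with means of 674 FPKM with dexamethasone plus THSG, 636 FPKM with dexamethasone and 1760 FPKM with vehicle. Of 7 adipocyte markers, 3 were analysed here and 2 were higher, at 47.4 to 53.6 FPKM with dexamethasone plus THSG, 45.0 to 47.6 FPKM with dexamethasone and 11.6 to 13.3 FPKM with vehicle (Adipoq, Plin1, Fabp4 and Cfd were not analysed here). Of 5 endothelial and 5 macrophage markers, 0 were analysed here. Fibroblasts and dividing cells can carry collagen RNA of their own, and the part of such cells in the collagen values was not tested.

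Dexamethasone changed the RNA of most of the collagen genes, mainly downwards, with Col4a1 and Col4a2 of basement membrane collagen IV on the other side. Against vehicle, 29 of the 36 genes were called (80.6%), where 33.6% of all genes were. Of these, 25 were lower (20.9% of all genes) and 4 were higher (12.7% of all genes). The lower ones held all 6 fibrillar chains, 6 of 9 chains of other types and 6 of 10 genes of chain modification. They also held the chaperone gene Serpinh1, both genes of propeptide removal and 4 of 5 lysyl oxidase genes. The 4 higher genes were Col4a1, Col4a2, Col25a1 and Lox.

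The 36 genes had a median log2 fold change of -0.49, against -0.05 over all genes. With libraries scaled by median ratios the medians were -0.45 and -0.00, and with equal sums -0.47 and -0.03. A change of at least 2-fold was found for 4 genes on the lower side (1.67% of all genes), Col8a1, Col5a3, Col1a1 and Loxl3, and for 2 on the higher side (1.22% of all genes), Col4a1 and Col4a2. The 3 dexamethasone libraries all lay on one side of the 3 vehicle libraries in 29 of the 36 genes, as they did in 45.9% of all genes. The members were longer and richer in GC than other genes, with medians of 4826.5 against 3399 bases and 55.4% against 49.7%. Removal of each library's trend over length and GC content left 25 lower and 4 higher.

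**Figure D1:**
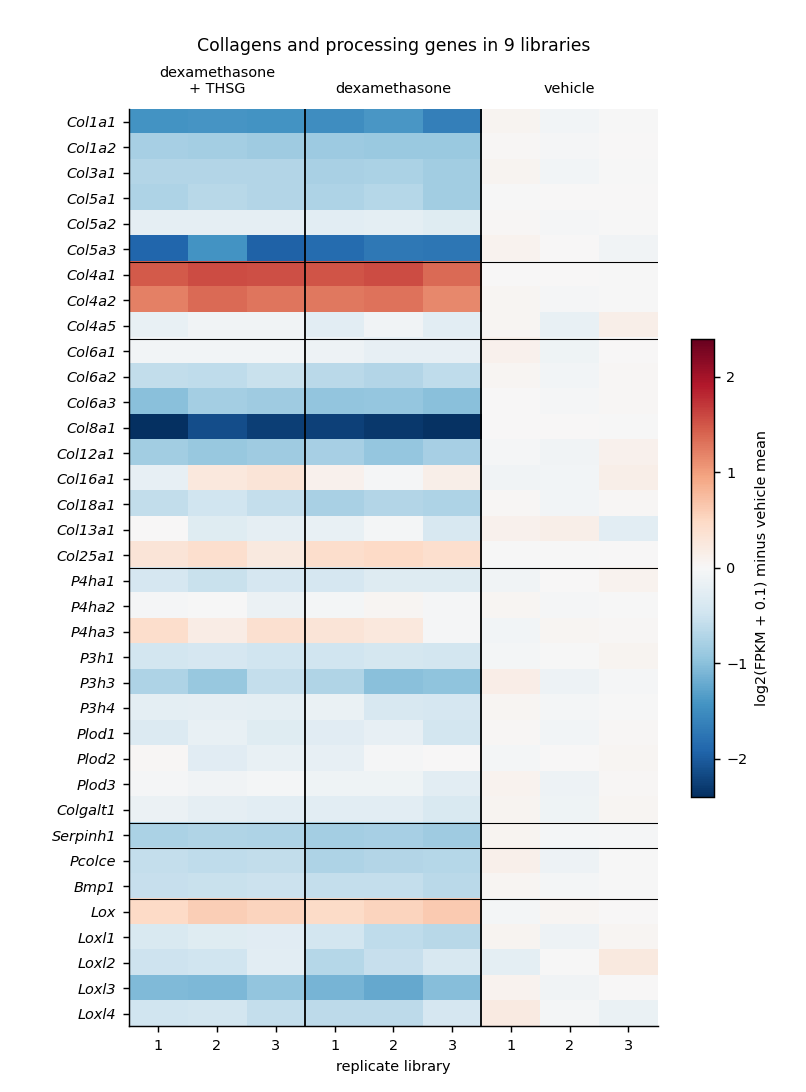
Heat map of the 36 genes (down the page, grouped by role) in 9 libraries (across, by group and replicate number), coloured by log2(FPKM + 0.1) minus the mean of the 3 vehicle libraries. Blue rows of fibrillar chains and most processing genes stand beside the red rows of Col4a1 and Col4a2, in the 6 libraries with dexamethasone alike. Lox and Col25a1 are also higher there.

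**Figure D2:**
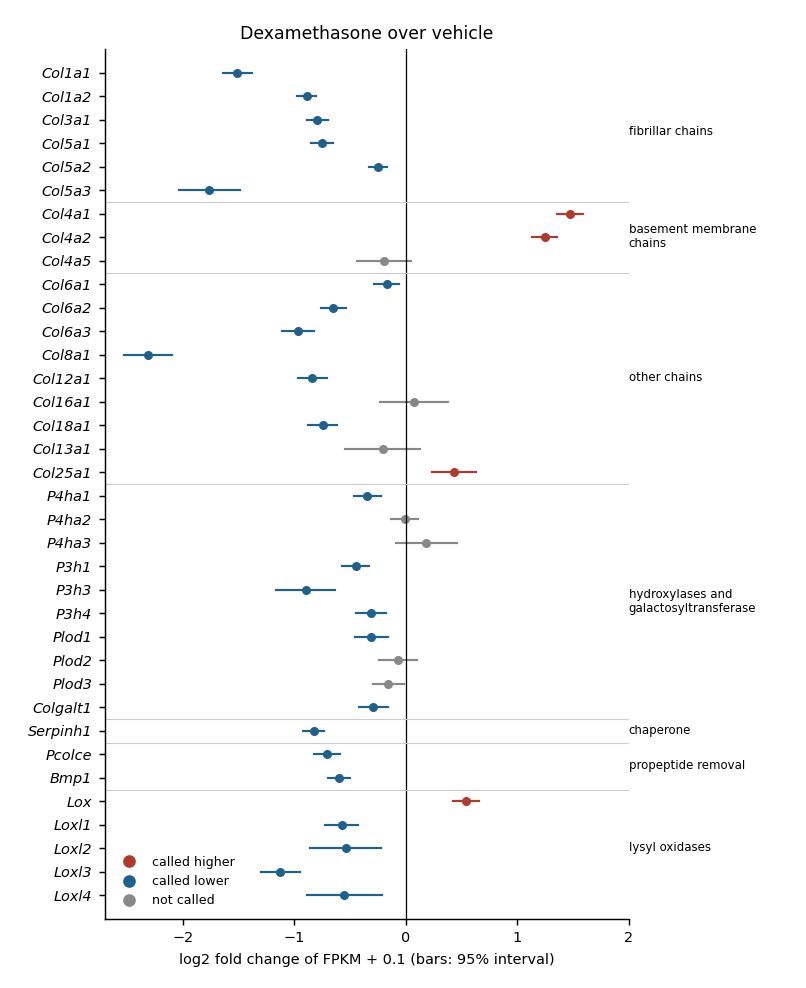
Log2 fold change of FPKM + 0.1, dexamethasone over vehicle, for each of the 36 genes, with 95% intervals from limma; red points were called higher, blue points lower and grey points not called. Points run from -2.31 (Col8a1) to 1.48 (Col4a1).

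All 6 chains of the fibrillar collagens, which form the banded fibres of connective tissue, fell with dexamethasone (median log2 fold change -0.84). Col1a1, the alpha 1 chain of type I collagen, stood at 30.6, 32.5 and 27.7 FPKM with dexamethasone and at 90.6, 82.4 and 86.1 FPKM with vehicle. Its 3 dexamethasone libraries all lay below the lowest vehicle library, and the log2 fold change was -1.51 (SE 0.060, adjusted p = 5.26e-09). Its partner in the type I helix, Col1a2, had levels of 134, 133 and 132 FPKM with dexamethasone, against 251, 242 and 247 FPKM with vehicle. The libraries within a group differed little beside the gap between the groups, and the log2 fold change was -0.89 (SE 0.038, adjusted p = 9.32e-09). Col3a1 encodes the chain of type III collagen, a fine-fibre collagen that mixes with type I, and was the most abundant member. It measured 336, 343 and 324 FPKM with dexamethasone and 604, 557 and 578 FPKM with vehicle, without overlap (log2 fold change -0.79, SE 0.044, adjusted p = 9.49e-08).

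Type V collagen sits in the core of type I fibres and limits their width. Its chain gene Col5a3 fell the furthest of the fibrillar group, with 4.08, 4.44 and 4.42 FPKM under dexamethasone and 15.8, 14.9 and 14.0 FPKM under vehicle. The groups did not overlap, and the log2 fold change of -1.76 (SE 0.125, adjusted p = 7.23e-07) ranked 27 from the lowest among 10716 genes. Col5a1 averaged 61.3 ± 3.1 FPKM with dexamethasone and 103 ± 1.1 FPKM with vehicle (SD, n = 3 each), a log2 fold change of -0.75. Col5a2 changed the least of the 6, to 150.4 ± 2.9 FPKM with dexamethasone against 179 ± 3.5 FPKM with vehicle, -0.25 on the log2 scale (adjusted p = 0.000277).

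Upstream sequences are shown for Col1a2 and Col3a1, a pair of abundant fibrillar genes with fold changes of like size, and for Col8a1, which fell the furthest of all members. Each is the 250 bases before the start of the gene in RefSeq, build GRCm38.p6, printed 5′ to 3′ on the strand of the gene; the authors' build was GRCm39. Capitals mark letter matches on either strand to the cores of promoter elements. These are CCAAT for the CCAAT box, TATAAA for the TATA box and GGGCGG for the GC box. A match does not show that the element works there. The TATAAA of Col3a1 begins at position -117 relative to the start. The regions are chr6:4505368-4505617 (plus strand) for Col1a2, chr1:45311288-45311537 (plus strand) for Col3a1 and chr16:57754738-57754987 (minus strand) for Col8a1.
Col1a2: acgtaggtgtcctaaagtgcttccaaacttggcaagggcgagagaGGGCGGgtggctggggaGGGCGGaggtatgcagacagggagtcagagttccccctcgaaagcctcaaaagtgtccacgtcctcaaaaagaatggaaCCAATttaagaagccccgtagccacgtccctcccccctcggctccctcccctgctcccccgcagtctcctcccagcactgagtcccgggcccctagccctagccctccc
Col3a1: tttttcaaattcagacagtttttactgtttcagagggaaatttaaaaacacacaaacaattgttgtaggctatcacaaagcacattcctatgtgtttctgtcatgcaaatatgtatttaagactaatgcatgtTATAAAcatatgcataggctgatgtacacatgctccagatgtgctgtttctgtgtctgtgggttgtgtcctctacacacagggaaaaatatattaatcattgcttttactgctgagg
Col8a1: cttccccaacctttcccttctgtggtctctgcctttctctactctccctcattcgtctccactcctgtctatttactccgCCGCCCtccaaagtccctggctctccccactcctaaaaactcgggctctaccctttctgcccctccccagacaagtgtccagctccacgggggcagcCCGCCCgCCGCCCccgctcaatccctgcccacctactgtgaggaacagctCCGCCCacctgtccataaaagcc

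The 3 stretches share few features. The Col1a2 stretch is 62.0% GC and holds GGGCGG and a CCAAT; the Col3a1 stretch is 35.2% GC and holds a TATAAA with neither of the others; the Col8a1 stretch is 60.8% GC and holds only GGGCGG, read on the opposite strand. Across the RefSeq windows from 250 bases before to 50 bases after each start, on both strands, CCAAT occurred in 37.4%, TATAAA in 13.6% and GGGCGG in 35.7% of 32851 windows. Windows were matched for 26 of the 36 genes, of which 10 held CCAAT, 4 TATAAA and 20 GGGCGG. Some genes, such as P3h1, had several windows, and a gene was counted if any of its windows held the letters. The percentages, here and below, are instead shares of single windows, so the units differ. Bmp1, Col12a1, Col1a1, Col5a2, Lox, Loxl1, Loxl2, Loxl3, P3h4 and Plod2 were not matched. In the 10652 windows of genes in the table, CCAAT was found in 37.3%, TATAAA in 7.08% and GGGCGG in 64.4%.

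The glucocorticoid receptor binds pairs of short inverted sequences. The full element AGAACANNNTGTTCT was in 3 of the 32851 windows (0.00913%) and in 0 of the 26 members. Its left part AGAACA alone, which is contained in the full element, was in 19.0% of all windows, in 11.97% of those of genes in the table and in 1 member, Colgalt1. A match to these letters is no evidence of binding, and a window without one says nothing of the receptor at more distant sites.

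The pair of genes for the common chains of basement membrane collagen IV moved the other way from the fibrillar genes. Col4a1 reached 101, 104 and 90.7 FPKM with dexamethasone, against 35.5, 35.3 and 35.1 FPKM with vehicle. Col4a2 reached 92.9, 95.9 and 86.5 FPKM with dexamethasone, against 39.8, 37.9 and 38.2 FPKM with vehicle. In both genes even the lowest dexamethasone library, replicate 3, stood far above the highest vehicle library. The log2 fold changes were 1.48 (SE 0.053, adjusted p = 2.28e-09) for Col4a1 and 1.25 (SE 0.052, adjusted p = 7.89e-09) for Col4a2, ranks 58 and 84 from the highest. Col4a5, an alternative chain used in kidney, muscle and other basement membranes, was not called, at 3.82 ± 0.27 FPKM with dexamethasone and 4.40 ± 0.49 FPKM with vehicle (log2 fold change -0.19, 95% interval from -0.43 to 0.04, adjusted p = 0.196).

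Col4a1 and Col4a2 lie head to head and are transcribed away from each other. In RefSeq on GRCm38.p6, Col4a1 starts at position 11312826 of chromosome 8 on the minus strand and Col4a2 at position 11312805 on the plus strand, so that the annotated first bases overlap by 22. The libraries were made with a stranded kit, but the strand setting used in counting is not given in the sources used here, so reads from that overlap cannot be assigned with certainty. The overlap is short beside transcript lengths of 6615 and 6450 bases.

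Among the 9 chains of other types, 6 fell, 1 rose and 2 were not called. Col8a1, a short-chain collagen of vessel walls and of the membrane behind the cornea, was at 3.80, 3.59 and 3.46 FPKM with dexamethasone and at 18.4, 18.5 and 18.2 FPKM with vehicle. Replicates lay close together beside the gap between the groups, and the log2 fold change of -2.31 ranked 6 from the lowest of all genes (SE 0.096). Col12a1, a fibril-associated collagen that bridges fibres, fell to 48.3 ± 2.7 FPKM with dexamethasone against 86.5 ± 5.8 FPKM with vehicle (log2 fold change -0.84). Col18a1, a basement membrane collagen and the source of endostatin, fell to 12.95 ± 0.32 FPKM with dexamethasone against 21.8 ± 0.84 FPKM with vehicle (-0.75).

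Type VI collagen forms beaded filaments around muscle fibres, and each of its molecules combines the products of Col6a1, Col6a2 and Col6a3 or a related chain. The 3 genes moved by unequal amounts. Col6a3 showed 10.3, 10.4 and 9.91 FPKM with dexamethasone and 20.2, 19.6 and 20.3 FPKM with vehicle (log2 fold change -0.97, SE 0.065). Col6a2 showed 24.9, 24.0 and 25.5 FPKM with dexamethasone and 40.1, 37.0 and 39.8 FPKM with vehicle (log2 fold change -0.65, SE 0.052). Neither gene had overlapping groups. Col6a1, the most abundant of them, was at 70.5, 66.6 and 66.2 FPKM with dexamethasone and at 81.9, 70.9 and 76.7 FPKM with vehicle, so that dexamethasone replicate 1 came close to vehicle replicate 2. Its log2 fold change of -0.17 (adjusted p = 0.0263) was no longer called with median-ratio scaling (-0.12, adjusted p = 0.0861), equal sums (0.0511) or quantile normalization (0.0793), nor without the intensity trend (0.0646), with only the 2 groups fitted (0.0520), or without any one of vehicle replicates 1 and 3 and dexamethasone replicates 2 and 3 (adjusted p from 0.0618 to 0.0984).

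Col25a1, a membrane-spanning collagen that developing mouse muscle needs to be reached by motor axons, was the third chain to rise. It read 4.99, 5.17 and 4.94 FPKM with dexamethasone and 3.69, 3.68 and 3.72 FPKM with vehicle, with no overlap (log2 fold change 0.43, SE 0.089, adjusted p = 0.00274). Col13a1, another membrane collagen, found at the neuromuscular junction, was not called at 2.29 ± 0.28 FPKM with dexamethasone and 2.67 ± 0.41 FPKM with vehicle (-0.21, from -0.54 to 0.13). Col16a1, a fibril-associated collagen, was also not called, at 4.05 ± 0.26 FPKM with dexamethasone and 3.84 ± 0.35 FPKM with vehicle (0.08, from -0.23 to 0.38).

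Enzymes that modify the chains in the endoplasmic reticulum fell in part. Of 10 genes, counting P3h4, a partner with no known hydroxylase activity, 6 were lower and 0 higher, with a median log2 fold change of -0.30. Prolyl 4-hydroxylases make the hydroxyproline that holds the helix together at body temperature. Of their 3 alpha subunit genes P4ha1 fell, to 50.4, 53.6 and 53.4 FPKM with dexamethasone against 62.8, 67.1 and 70.3 FPKM with vehicle (log2 fold change -0.34, SE 0.057, adjusted p = 0.000619). The dexamethasone libraries all lay below the vehicle libraries. P4ha2 was at 25.4 ± 0.94 FPKM with dexamethasone and 25.6 ± 0.76 FPKM with vehicle, a difference of -0.01 on the log2 scale (95% interval from -0.13 to 0.11), and the scarcer P4ha3 at 3.10 ± 0.38 FPKM with dexamethasone and 2.71 ± 0.11 FPKM with vehicle (0.18, from -0.09 to 0.46).

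Prolyl 3-hydroxylases modify single prolines of the helix. P3h3 fell to 4.67, 3.80 and 3.94 FPKM with dexamethasone against 8.67, 7.09 and 7.59 FPKM with vehicle, groups that did not overlap (log2 fold change -0.90, SE 0.120, adjusted p = 0.000135). P3h1, which acts in a complex with Crtap and cyclophilin B, fell by 0.45 on the log2 scale. P3h4, a partner of P3h3 with no known hydroxylase activity of its own, fell by 0.31.

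Lysyl hydroxylases prepare lysines for sugar addition and crosslinking. Plod1, which acts on the helix, was at 30.6 ± 2.6 FPKM with dexamethasone and 37.8 ± 1.4 FPKM with vehicle (log2 fold change -0.31, adjusted p = 0.00413). Plod2, the enzyme for the chain ends, was not called, at 33.5 ± 2.4 FPKM with dexamethasone and 35.0 ± 1.0 FPKM with vehicle (-0.07, from -0.24 to 0.10). Plod3, which also adds glucose, was not called either (-0.16, adjusted p = 0.0777), although it passed without vehicle replicate 2 (-0.21, adjusted p = 0.0246). Colgalt1, which adds galactose to hydroxylysine, fell to 30.2 ± 1.4 FPKM with dexamethasone against 37.0 ± 2.2 FPKM with vehicle (-0.29, adjusted p = 0.00261).

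Serpinh1 encodes HSP47, a chaperone that binds the collagen helix and escorts it out of the endoplasmic reticulum. It had 173, 174 and 168 FPKM with dexamethasone and 320, 296 and 299 FPKM with vehicle, groups far from overlapping (log2 fold change -0.83, SE 0.042, adjusted p = 4.05e-08). Bmp1 encodes the protease that removes the carboxy-terminal propeptide and so starts fibre assembly, and Pcolce a secreted protein that speeds this cut. Bmp1 was at 57.3, 57.5 and 54.3 FPKM with dexamethasone and at 88.7, 82.7 and 85.0 FPKM with vehicle (log2 fold change -0.60, SE 0.044). Pcolce was at 139, 142 and 144 FPKM with dexamethasone and at 252, 213 and 231 FPKM with vehicle (-0.71, SE 0.055). In both genes the groups stood clear of each other.

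The lysyl oxidase family split. Lox, the founding crosslinking enzyme, rose to 150.5, 160.2 and 170.0 FPKM with dexamethasone against 106, 114 and 110.0 FPKM with vehicle. All 3 dexamethasone libraries exceeded the highest vehicle library, and the log2 fold change was 0.54 (SE 0.053, adjusted p = 9.98e-06). Loxl1, which also crosslinks elastin, fell to 59.0, 52.5 and 50.2 FPKM with dexamethasone against 84.0, 73.8 and 82.7 FPKM with vehicle, again without overlap (-0.57, SE 0.067, adjusted p = 4.65e-05). Loxl3 fell to 6.90, 6.35 and 7.37 FPKM with dexamethasone against 15.9, 14.2 and 15.2 FPKM with vehicle (-1.13, SE 0.080, adjusted p = 7.25e-07).

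The scarce members Loxl2 and Loxl4 were called with less margin. Loxl2, which crosslinks basement membrane collagen IV, averaged 2.45 ± 0.27 FPKM with dexamethasone and 3.63 ± 0.62 FPKM with vehicle (-0.54, adjusted p = 0.0143). Loxl4 averaged 1.30 ± 0.14 FPKM with dexamethasone and 1.96 ± 0.29 FPKM with vehicle (-0.55, adjusted p = 0.0160). Loxl2 was not called without vehicle replicate 3 (adjusted p = 0.0606) or dexamethasone replicate 1 (0.0533), nor Loxl4 without vehicle replicate 1 (0.0705) or dexamethasone replicate 1 (0.0503).

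**Figure D3:**
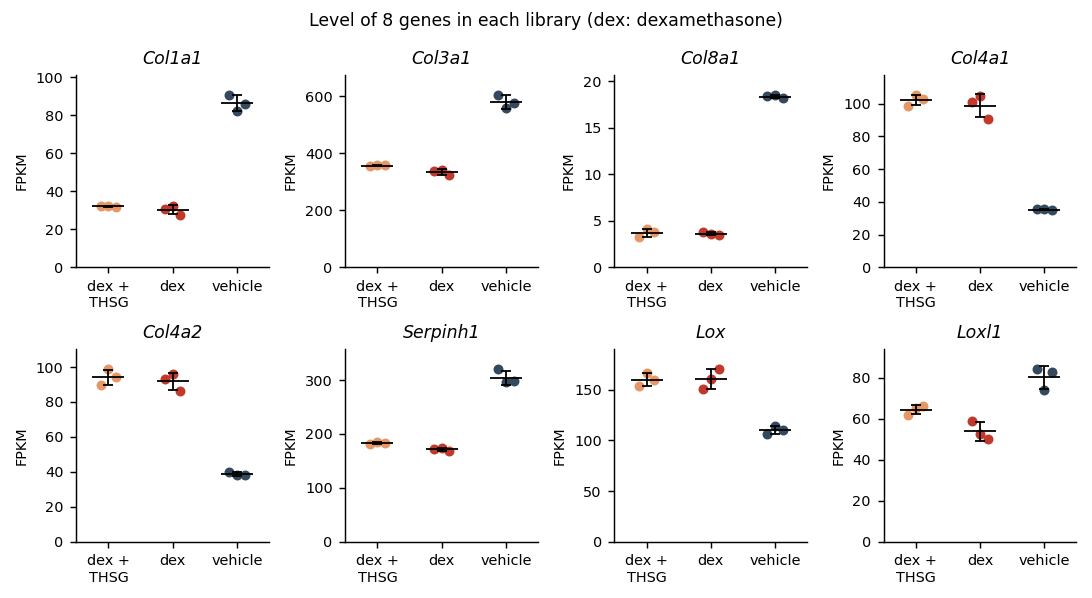
FPKM of 8 genes in each library (points), with the mean and SD of 3 libraries (bars), for dexamethasone plus THSG, dexamethasone and vehicle; every axis starts at 0. Col1a1, Col3a1, Col8a1, Serpinh1 and Loxl1 lie lower and Col4a1, Col4a2 and Lox higher in both groups with dexamethasone than in the vehicle group.

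Added over the 18 chains, collagen RNA came to 1099, 1109 and 1054 FPKM with dexamethasone and to 1604, 1512 and 1566 FPKM with vehicle. These are sums of levels per length, and the groups were well apart. The means were 1087 ± 29 FPKM with dexamethasone and 1561 ± 47 FPKM with vehicle as deposited, 1101 and 1529 FPKM after median-ratio scaling and 1097 and 1553 FPKM with equal sums. The fibrillar chains made up 714 ± 18 FPKM of it with dexamethasone and 1210 ± 35 FPKM with vehicle.

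Because the chains moved in different directions, the makeup of the collagen RNA differed as well. Col4a1 and Col4a2 together held 17.6%, 18.1% and 16.8% of the summed chains with dexamethasone, against 4.69%, 4.85% and 4.68% with vehicle. No library of one group came near the other. These shares are ratios within a library, so scaling between libraries does not enter them.

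Chains that share a helix also shifted against each other. The ratio of Col1a1 to Col1a2 was 0.228, 0.245 and 0.210 with dexamethasone and 0.361, 0.341 and 0.349 with vehicle. In the type I helix, the alpha 1 chain outnumbers the alpha 2 chain, while here its RNA was the lower of the pair in every library on this per-length scale. The ratio of Col5a1 to Col5a2 was 0.409, 0.419 and 0.394 with dexamethasone and 0.556, 0.589 and 0.582 with vehicle. Col6a1 stood to Col6a3 as 6.82, 6.39 and 6.68 with dexamethasone and as 4.05, 3.62 and 3.77 with vehicle. None of these ratios overlapped between the groups.

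The ratio of Col4a1 to Col4a2 moved far less than either gene, with 1.09, 1.09 and 1.05 under dexamethasone and 0.893, 0.931 and 0.919 under vehicle, though it too did not overlap. Lox held 68.5%, 71.9% and 73.4% of the summed FPKM of its family with dexamethasone and 50.2%, 54.9% and 51.4% with vehicle. Serpinh1 amounted to 0.157, 0.157 and 0.160 of the summed chains with dexamethasone and to 0.199, 0.196 and 0.191 with vehicle, so it was lower relative to the chains as well.

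**Figure D4:**
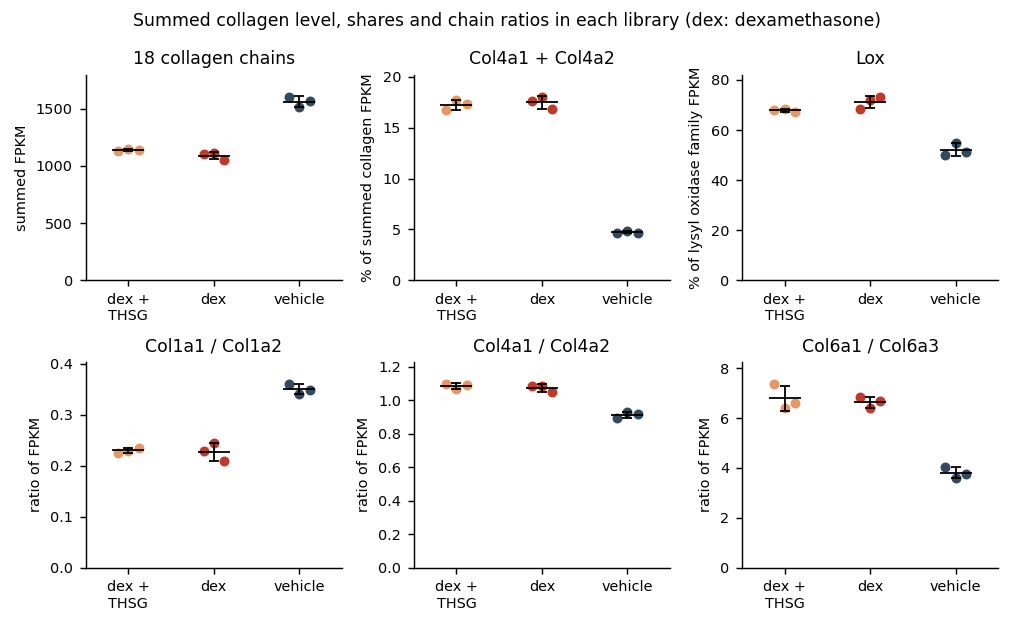
Summed FPKM of the 18 chains, the share of Col4a1 plus Col4a2 in it, the share of Lox in the 5 lysyl oxidase genes, and ratios of FPKM between chain genes, in each library (points) with mean and SD of 3 (bars), for dexamethasone plus THSG, dexamethasone and vehicle; axes start at 0. The share of Col4a1 plus Col4a2 averages 17.3% and 17.5% in the groups with dexamethasone and 4.74% with vehicle.

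Other genes that serve collagen were counted from lists, each beside the 20.9% of all genes that were lower and the 12.7% that were higher with dexamethasone. Of 25 genes of procollagen folding and export analysed here, 18 were lower and 1 was higher with dexamethasone, with a median log2 fold change of -0.40 against -0.05 over all genes; 1 of them, P3h4, is also among the 36. Creb3l1, a membrane-bound transcription factor that raises collagen genes in mouse bone, fell to 13.3, 12.1 and 14.3 FPKM with dexamethasone against 29.4, 34.9 and 34.5 FPKM with vehicle (-1.31, SE 0.081). Kdelr3 and Kdelr2, receptors that return proteins such as HSP47 to the endoplasmic reticulum, fell by 1.06 and 0.69 on the log2 scale. The one higher gene was Tmem38b, a potassium channel of the endoplasmic reticulum, at 51.8 ± 2.3 FPKM with dexamethasone and 30.4 ± 0.38 FPKM with vehicle (0.77).

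Of 9 propeptide proteases and their partners analysed here, 5 were lower and 2 higher (median -0.45). The lower genes included Fn1, Fbln5, Efemp2 and Mmp14, none of which is a propeptide protease. The lower count is therefore mostly one of partners. The smallest p belonged to a higher gene, Postn, which encodes periostin, a matrix protein of remodelling tissue. It rose to 212, 214 and 224 FPKM with dexamethasone against 45.8, 49.9 and 49.7 FPKM with vehicle (2.16, SE 0.053). Fn1, fibronectin, on which collagen fibres are laid down, fell to 1111 ± 23 FPKM with dexamethasone against 2215 ± 55 FPKM with vehicle (-0.996). Fbln5 and Efemp2, fibulins of the elastic fibre, had log2 fold changes of -1.29 and -0.999. Of 12 fibril-associated proteoglycans and glycoproteins, 7 were lower and 4 higher (median -0.29). Tnc, the matrix glycoprotein tenascin C, fell to 7.49 ± 0.72 FPKM with dexamethasone against 41.5 ± 1.1 FPKM with vehicle (-2.46). The thrombospondin genes went opposite ways, with Thbs1 at 204 ± 4.3 FPKM with dexamethasone and 466 ± 25 FPKM with vehicle (-1.19) and Thbs2 at 77.8 ± 5.9 FPKM with dexamethasone and 20.8 ± 1.9 FPKM with vehicle (1.90). Matn2, a matrilin that links filaments, rose by 1.24.

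Genes of collagen breakdown and uptake were mixed. Of 11 analysed here, 5 were lower, 1 higher and 5 not called, with a median of -0.19. The smallest p values were those of Timp1 and Timp3, inhibitors of the matrix metalloproteinases that break collagen down. Timp1 fell to 85.2, 87.0 and 90.7 FPKM with dexamethasone against 257, 269.8 and 239.98 FPKM with vehicle (-1.54, SE 0.050). Timp3 fell to 11.6, 10.6 and 12.1 FPKM with dexamethasone against 45.1, 55.9 and 53.0 FPKM with vehicle (-2.16, SE 0.081). Both inhibitor genes had groups far apart. Mrc2, the receptor through which cells take up collagen pieces, fell to 23.2, 24.2 and 23.7 FPKM with dexamethasone against 52.4, 45.9 and 47.6 FPKM with vehicle (-1.03, SE 0.062). Mmp14, a membrane-bound collagenase, fell to 189 ± 2.8 FPKM with dexamethasone against 258 ± 4.1 FPKM with vehicle (-0.45). It was also counted as a lower gene among the propeptide proteases and partners, and its fold change is the median of that list. The collagenase genes Mmp8 and Mmp13 were not analysed here.

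The next comparison asked whether THSG altered the collagen genes in cells that also received dexamethasone. None of them passed. In limma, 0 of the 36 genes and 0 of 10716 genes (0%) were called; without adjustment, 777 genes (7.25%) and 3 of the 36 had a p under 0.05. The 3 were Loxl1, Col18a1 and Serpinh1, all higher with THSG, where 5.05% of all genes were higher and 2.20% lower at that level. Log2 fold changes of the 36 ran from -0.12 (Col25a1) to 0.26 (Loxl1), with a median of 0.07 against 0.02 over all genes. The 95% intervals reached a median of 0.130 to either side, against 0.185 over all genes.

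Loxl1 was nearest to the threshold, with 61.7, 65.5 and 66.2 FPKM with dexamethasone plus THSG and 59.0, 52.5 and 50.2 FPKM with dexamethasone. The groups did not overlap, though dexamethasone replicate 1 came close to the lowest library with THSG, and the log2 fold change was 0.26 (95% interval from 0.11 to 0.41, adjusted p = 0.421). Over 20 alternative settings it ran from 0.18 to 0.33 with adjusted p from 0.224 to 0.946. Col18a1 had 14.4, 15.6 and 14.7 FPKM with dexamethasone plus THSG and 12.7, 13.3 and 12.9 FPKM with dexamethasone (0.20, from 0.07 to 0.33, adjusted p = 0.534). Serpinh1 had 181, 186 and 183 FPKM with dexamethasone plus THSG and 173, 174 and 168 FPKM with dexamethasone (0.09, from 0.00 to 0.18, adjusted p = 0.685).

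For other genes that dexamethasone had moved, the intervals were of unequal width. Col1a1 averaged 32.1 ± 0.10 FPKM with dexamethasone plus THSG and 30.3 ± 2.4 FPKM with dexamethasone (0.08, from -0.05 to 0.22). Col8a1 averaged 3.70 ± 0.45 FPKM with dexamethasone plus THSG and 3.62 ± 0.17 FPKM with dexamethasone (0.02, from -0.19 to 0.23). Col5a3 averaged 4.37 ± 0.91 FPKM with dexamethasone plus THSG and 4.31 ± 0.21 FPKM with dexamethasone (0.00, from -0.27 to 0.28). The intervals of Col8a1 and Col5a3 were wider than the median interval of all genes. Col4a1 averaged 102 ± 3.3 FPKM with dexamethasone plus THSG and 98.7 ± 7.1 FPKM with dexamethasone (0.05, from -0.06 to 0.17). For Lox the log2 fold change was -0.00, from -0.12 to 0.11. These intervals bound the size of a difference and do not show that the groups were equal.

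In 10 of the 36 genes (27.8%) all dexamethasone plus THSG libraries lay above all dexamethasone libraries, where 8.41% of all genes did so, and in 0 they lay below, where 4.84% did. The 10 were Col1a2, Col3a1, Col5a2, Col6a1, Col18a1, Plod3, Serpinh1, Pcolce, Bmp1 and Loxl1. With median-ratio scaling 8 genes lay above (6.58% of all genes) and 2 below (6.62%), and with equal sums 6 above (5.88%) and 1 below (7.09%). When dexamethasone replicate 3, with its high mitochondrial share, was left out, 14 lay above and 1 below, where 12.9% and 8.08% of all genes did. Fold changes were above 0 in 30 of the 36 (56.2% of all genes) as deposited, and in 28 with median-ratio scaling (50.8%) or equal sums (49.8%). These counts carry no test, since the 36 genes are not independent of each other.

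**Figure D5:**
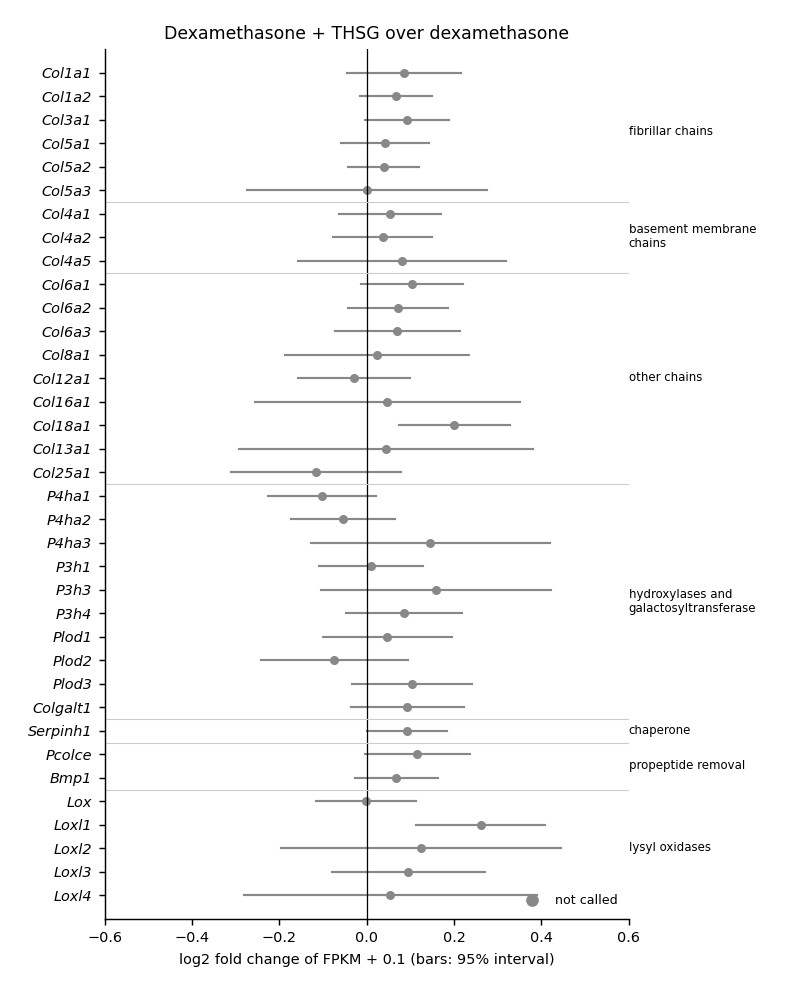
Log2 fold change of FPKM + 0.1, dexamethasone plus THSG over dexamethasone, for each of the 36 genes, with 95% intervals from limma; no gene was called. Points run from -0.12 (Col25a1) to 0.26 (Loxl1), on an axis far narrower than that of the plot of dexamethasone over vehicle.

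The 18 chains summed to 1126, 1149.9 and 1135 FPKM with dexamethasone plus THSG and to 1099, 1109 and 1054 FPKM with dexamethasone, without overlap. With equal sums the means were 1134 ± 31 FPKM with dexamethasone plus THSG and 1097 ± 36 FPKM with dexamethasone, and the libraries overlapped. With median-ratio scaling they were 1141 ± 21 FPKM with dexamethasone plus THSG and 1101 ± 27 FPKM with dexamethasone. These libraries did not overlap, though the lowest with THSG, at 1121 FPKM, almost met the highest with dexamethasone alone, at 1118 FPKM. Col4a1 and Col4a2 held 17.3% ± 0.51 of the sum with dexamethasone plus THSG and 17.5% ± 0.63 with dexamethasone. The ratio of Col1a1 to Col1a2 was 0.230 ± 0.0049 with dexamethasone plus THSG and 0.228 ± 0.017 with dexamethasone. Both of these measures overlapped between the groups. Lox over Loxl1 was 2.49, 2.54 and 2.41 with dexamethasone plus THSG and 2.55, 3.05 and 3.39 with dexamethasone. Serpinh1 over the summed chains was 0.161, 0.162 and 0.161 with dexamethasone plus THSG and 0.157, 0.157 and 0.160 with dexamethasone. Neither of the last pair of ratios overlapped, though their nearest libraries almost met. In the lists of folding and export, propeptide proteases, fibril-associated proteins and breakdown, 0 genes were called.

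Dexamethasone plus THSG was also set against vehicle, a comparison that shares its vehicle libraries with that of dexamethasone alone, so that likeness between them is no independent result. Of the 36 genes, 27 were called (29.1% of all genes), 23 lower (17.0% of all genes) and 4 higher (12.1% of all genes). The median log2 fold change was -0.43 against -0.04 over all genes. The 4 higher genes were Col4a1 (1.53 with dexamethasone plus THSG, 1.48 with dexamethasone), Col4a2 (1.28 and 1.25), Lox (0.54 in both) and Col25a1 (0.32 and 0.43). Col8a1 stood at -2.29 with dexamethasone plus THSG and -2.31 with dexamethasone, Col5a3 at -1.76 in both, Col1a1 at -1.43 and -1.51, Loxl3 at -1.03 and -1.13, and Serpinh1 at -0.73 and -0.83. Against vehicle, the call of Col25a1 with dexamethasone plus THSG was lost without vehicle replicate 2 (adjusted p = 0.0527) or dexamethasone plus THSG replicate 2 (0.0777). Of the genes of folding and export, 21 of 25 were lower with dexamethasone plus THSG than with vehicle and 1 was higher, of the propeptide proteases and partners 5 and 3 of 9, of the fibril-associated proteins 7 and 4 of 12, and of the breakdown and uptake genes 5 and 2 of 11.

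Col6a1 and Loxl2 were called for dexamethasone against vehicle and not for dexamethasone plus THSG against vehicle. Col6a1 was at 73.3, 72.5 and 72.7 FPKM with dexamethasone plus THSG and at 81.9, 70.9 and 76.7 FPKM with vehicle, overlapping groups (-0.07, adjusted p = 0.376). Loxl2 was at 2.51, 2.54 and 2.98 FPKM with dexamethasone plus THSG and at 3.02, 3.59 and 4.27 FPKM with vehicle (-0.42, adjusted p = 0.0527). The test of the difference itself, dexamethasone plus THSG against dexamethasone, called neither gene (adjusted p = 0.706 for Col6a1 and 0.871 for Loxl2). Among the processing enzymes P4ha3 was not called, at 3.44 ± 0.32 FPKM with dexamethasone plus THSG and 2.71 ± 0.11 FPKM with vehicle (0.33, adjusted p = 0.0700), and it passed with median-ratio scaling (0.36, adjusted p = 0.0484).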

How the data were processed

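Total RNA of 9 C2C12 myotube samples was made into stranded mRNA libraries, per the labels' protocols. Reads were processed with STAR 2.7.10a and featureCounts on build GRCm39, per the submitters' processing notes. The deposited table holds fractional values, all above 1.00, that the authors scaled by steps not given in the sources used here; the deposited values were taken as FPKM. Read counts could not be recovered, so depth is unknown. Limma 3.58.1 in R 4.3.3 was fitted to log2(FPKM + 0.1) with an intensity trend and 1 mean per group over all 9 libraries. Tests were two-sided, with Benjamini-Hochberg adjustment over 10716 genes and a threshold of 0.05. Intervals are 95% intervals of that fit. The step was tested on simulated data. All 36 genes found by symbol are named; from each other list at most 4 genes with the smallest p for dexamethasone against vehicle are. The genes and lists were chosen with earlier results of these data known. Symbols, lengths and GC content came from GENCODE annotation of GRCm38, which matched 10670 of 10716 identifiers, and 50 symbols in human style were replaced. Alternatives covered the pseudocount, scaling, filtering, the trend, the groups fitted, a replicate block, GC and length, and leaving out each library.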

Additional observations from a re-analysis of the deposited data

How the results depend on the processing

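Under 20 alternatives, 19 for 7 scarce genes that a stricter filter removed, the 36 genes kept their side of the threshold except 4 for dexamethasone against vehicle (Col6a1, Plod3, Loxl2, Loxl4), 0 for dexamethasone plus THSG against dexamethasone and 7 for dexamethasone plus THSG against vehicle (P3h4, Loxl4, Plod2, Loxl2, Colgalt1, P4ha3, Col25a1). Every called gene kept its sign in these alternatives. Among genes not called, 1 changed sign for dexamethasone against vehicle, 9 for dexamethasone plus THSG against dexamethasone and 0 for dexamethasone plus THSG against vehicle, and none of the changed values was called (adjusted p of at least 0.624 and 0.854 in the comparisons concerned); the cause was not tested. For dexamethasone against vehicle P4ha2 was 0.039 with median-ratio scaling, 0.011 with equal sums, 0.024 with quantile normalization and 0.011 with GC and length removed, with or without a replicate block. For dexamethasone plus THSG against dexamethasone the same scalings gave -0.012, -0.015 and -0.014 for Col5a3 and -0.0041, -0.0067 and -0.0060 for P3h1. Removing GC and length there, with or without the block, gave -0.085 for Col5a3, -0.025 for P3h1, 0.046 for Lox, -0.033 for Col4a2, -0.038 for Col16a1 and -0.019 for Col13a1. Leaving out 1 library gave -0.039 to 0.015 for P4ha2 in the first comparison, and in the second -0.161 to 0.092 for Col5a3, -0.023 to 0.099 for Plod1, -0.046 to 0.042 for Lox, -0.0090 to 0.028 for P3h1, -0.0070 to 0.094 for Col4a1, -0.0055 to 0.071 for Col4a2, -0.047 to 0.205 for Col16a1, -0.049 to 0.124 for Col13a1 and -0.054 to 0.118 for Col8a1. Leaving out 1 library gave 23 to 26 lower and 4 higher genes for dexamethasone against vehicle, and 21 to 23 lower and 3 to 5 higher for dexamethasone plus THSG against vehicle. Over all genes, it gave 2956 to 3583 calls for dexamethasone against vehicle, 2559 to 3189 for dexamethasone plus THSG against vehicle, and 0 to 1 for dexamethasone plus THSG against dexamethasone, where Cks2 passed without dexamethasone replicate 3. A replicate block called 1 gene there, Rps2-ps10, and 1 with GC and length removed as well; the cause was not tested. The block left 25 lower and 4 higher for dexamethasone against vehicle. Deviations of same-numbered libraries correlated between -0.0862 and 0.107, over 0.1 in 1 of 9 pairs, and 3 of 9 best matches were to the library's own number, so the numbers were not taken as pairs. Counts for non-overlapping libraries and summed levels under other scalings were added after seeing the data. Depth is unknown, so the counting error behind scarce genes such as Loxl4 is too.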

Other observations

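Genes around collagen other than its own enzymes were counted for dexamethasone against vehicle, beside 12.7% higher and 20.9% lower over all genes. Of 13 genes that supply proline, glycine and ascorbate, 6 were lower and 1 higher. Pycr1, the last step of proline synthesis, was at 2.21, 2.09 and 1.85 FPKM with dexamethasone and at 4.98, 6.46 and 5.38 FPKM with vehicle (log2 fold change -1.40, SE 0.140, limma adjusted p = 1.24e-05). Aldh18a1, the first step of proline synthesis from glutamate, was at 7.75 ± 0.98 FPKM with dexamethasone and at 15.3 ± 0.65 FPKM with vehicle (SD, n = 3 each), a difference of -0.98 (SE 0.094, adjusted p = 8.38e-06). In neither gene did a dexamethasone library reach the lowest vehicle library. Phgdh, the entry to serine synthesis, and Shmt2, which makes glycine from serine in mitochondria, fell by 0.63 and 0.64. Of 6 genes listed as collagen receptors, 2 were higher and 2 lower. Itga10, a collagen-binding integrin subunit, rose to 28.2, 28.0 and 28.2 FPKM with dexamethasone against 15.6, 14.0 and 14.4 FPKM with vehicle (0.93, SE 0.053), and Itgb1, its beta partner, rose by 0.16. Ddr2, a receptor kinase for fibrillar collagen, had a log2 fold change of -0.57. The other lower gene, Endod1 (-0.26), was on the list but is not an established collagen receptor.

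Of 19 genes of the TGF-beta pathway, a main stimulus of collagen synthesis, 10 were lower and 5 higher. The smallest p belonged to Ccn2, a matrix-associated growth regulator induced by TGF-beta, which rose to 101, 112 and 101 FPKM with dexamethasone against 27.8, 29.3 and 27.9 FPKM with vehicle (1.88, SE 0.059). The receptor genes of the pathway split: Tgfbr2 fell to 43.2, 45.5 and 43.1 FPKM with dexamethasone against 78.9, 74.1 and 74.8 FPKM with vehicle (-0.79, SE 0.044), while Tgfbr3, betaglycan, rose to 12.8, 12.7 and 12.3 FPKM with dexamethasone against 4.02, 3.67 and 3.31 FPKM with vehicle (1.76, SE 0.080). Ltbp2, a microfibril protein, was at 12.6 ± 1.4 FPKM with dexamethasone and 41.5 ± 0.31 FPKM with vehicle (-1.72). Of 19 factors of collagen gene transcription and hypoxia, 8 were lower and 2 higher. Scx, a tendon factor that activates type I collagen genes in mouse, fell to 75.2, 79.5 and 60.3 FPKM with dexamethasone against 129.6, 109.8 and 101.7 FPKM with vehicle (-0.67, SE 0.101), and Sox9, Egr1 and Runx1 fell by 0.58, 0.35 and 0.32. For dexamethasone plus THSG against dexamethasone, 0 genes of these 4 lists were called.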
